A study of Mus musculus with 6 samples.

Results

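The cytosolic ribosomal protein genes encode the proteins that, together with ribosomal RNA, form the small and the large subunit of the ribosome in the cytoplasm. They were taken by symbol: every probe set whose single platform gene symbol is Rpl, Rps or Rplp followed by a number, with an optional letter or l, leaving out the Rps6k kinase genes and pseudogenes. This gave 45 of the 18194 genes on the array, 21 of the small subunit and 24 of the large subunit. Each gene took the probe set with the highest mean signal of those that name it alone, out of 98 such probe sets. A further 110 probe sets pair a ribosomal protein symbol with another gene and were not used. Of the 45 genes, 41 had a mean signal of 89.0 or more, a level set at the median of all probe sets, and are the kept members described below.

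The study measured RNA from 1 frontal cortical lobe per mouse at 21 days of age on 6 Affymetrix microarrays, 1 for each genotype. Migrating neurons are guided by reelin, the secreted product of Reln, which binds Vldlr and Apoer2 (encoded by Lrp8) and acts through the adaptor Dab1. The arrays are a Dab1 knockout, a Reln knockout, a double knockout of Apoer2 and Vldlr, a knockout of Vldlr, a knockout of Apoer2 and a wild type (WT). The first 3 are called reeler models here and the other 3 comparison arrays. All mice are labelled as untreated males on a mixture of C57BL/6 and 129, and the labels give no allele. The 4 genotypes other than the Dab1 and Reln knockouts came from a Vldlr and Apoer2 double-heterozygous cross, so the WT is a littermate of that cross and not of the Dab1 or Reln mice. The knockouts are not described as restricted to a cell type. Bulk tissue cannot tell fewer cells of a type apart from less RNA per cell.

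The targeted genes followed the labels on most arrays. Reln read 79.9 on the Reln knockout array and 1498 to 1880 on the others. Lrp8 read 4.2 and 13.7 on the Apoer2 and double knockout arrays and 342.4 to 379.8 on the others, and Vldlr read 217.9 and 126.8 on the Vldlr and double knockout arrays and 472.5 to 600.0 on the others. Dab1 was 478.5 on its own knockout array and 516.4 to 626.0 elsewhere, so its probe set did not mark that array clearly. The Apoer2 knockout array stood apart: Xist read 124.9 there and 3368 to 4006 on the other 5 arrays, the Y-linked Eif2s3y read 367.5 there and at most 7.7 elsewhere, and the pituitary hormone gene Gh read 3705 there and 13.1 to 32.4 elsewhere. These values go against the label of male for the other 5 arrays. The tissue also held more than cortex. Cerebellar granule cell markers summed to 1754 to 2509 on reeler models and 7196 to 9844 on comparison arrays, and all 6 granule markers were lower in every reeler model than on every comparison array. Excitatory cortical markers summed to 8738 to 9890 on reeler models and 7529 to 8372 on comparison arrays. By marker only 3 of 5 were above 0, Cux2 at 0.53, Camk2a at 0.28 and Slc17a7 at 0.078 in log2 difference. Neurod6 at -0.036 and Tbr1 at -0.12 were below 0, and of the 5 only Cux2 separated. The part of either difference in the ribosomal protein values was not tested.

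Ribosomal proteins are made in nearly equal amounts, and cells keep their mRNAs among the most abundant they hold. The mRNAs begin with a run of pyrimidines, the 5′ terminal oligopyrimidine tract, through which the mTOR pathway adjusts how often they are translated. In neurons the ribosome also acts in dendrites and axons, where local translation serves synapses and growth.

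The start of the transcript is shown for members that the results turn on, because the pyrimidine run is the feature these genes are known for. The sequences are from RefSeq, build GRCm38.p6, and span 40 bases before to 20 bases from the annotated start, with the longest C and T run that touches the window in capitals. Rps6, on the minus strand of chr4:86857348-86857407, Rps27, on the minus strand of chr3:90213629-90213688, Rps26, on the minus strand of chr10:128626487-128626546, Rpl13a, on the minus strand of chr7:45128726-45128785, and Rplp2, on the plus strand of chr7:141447611-141447670, hold such a run. Rps2, on the plus strand of chr17:24720023-24720082, is shown beside them because its window holds no run of the minimum length of 8 bases.
Rps6: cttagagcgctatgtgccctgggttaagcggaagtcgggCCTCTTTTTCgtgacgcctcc
Rps27: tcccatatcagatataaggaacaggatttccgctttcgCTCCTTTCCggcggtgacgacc
Rps26: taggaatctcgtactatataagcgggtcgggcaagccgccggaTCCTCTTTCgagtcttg
Rpl13a: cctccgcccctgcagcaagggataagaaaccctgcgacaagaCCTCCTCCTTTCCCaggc
Rplp2: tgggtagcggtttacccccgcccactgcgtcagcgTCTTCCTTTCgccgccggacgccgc
Rps2: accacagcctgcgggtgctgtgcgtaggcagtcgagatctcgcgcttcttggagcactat

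A promoter in the RefSeq table was found for 39 of the 45 genes. A run of at least 8 pyrimidines within 20 bases of an annotated start, on the transcribed strand, was present in 22 of 39, or 56.4%, against 23.7% of 27025 genes with a promoter. The letters CTTTC in the same window were present in 12 of 39, or 30.8%, against 6.44%. CTTTC is made of pyrimidines, so it can lie within the run. CCGGAAG and its reverse complement CTTCCGG are letters known as a match for ETS family factors. They were sought in the whole promoter of 300 bases, 250 before and 50 after the start. Either occurred in 19 of 39, or 48.7%, against 9.93%. A match is a description of letters and not a site.

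The question of the first comparison was whether the ribosomal protein genes differed between the reeler models and the comparison arrays. Most kept members read slightly higher in the reeler models, but no member passed the test. The median difference of the 41 kept members was 0.13 on the log2(signal + 28.1) scale, which is 1.09-fold, against 0.0096 over all 11577 genes tested. The difference was above 0 for 34 of 41 members, against 52.2% of all genes. In 17 of 41 members every reeler model lay above every comparison array, against 9.08% of all genes, and in 0 members every reeler model lay below, against 8.49%.

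By limma with Benjamini-Hochberg adjustment over all genes tested, 0 of 41 members were past an adjusted p of 0.05, against 0.13% of all genes. The lowest adjusted p of a member was 0.303. At an unadjusted limma p under 0.05, 8 members were higher, against 5.26% of all genes, and 0 were lower, against 5.71%. All 8 had a mean signal of 2000 or more. Of the 801 genes at that level, 15.1% were higher by the same rule and 1.75% lower. Each array of a class has another genotype, so the test counts genotype differences as spread, and nothing says how far a second mouse of a genotype would differ.

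**Figure D1:**
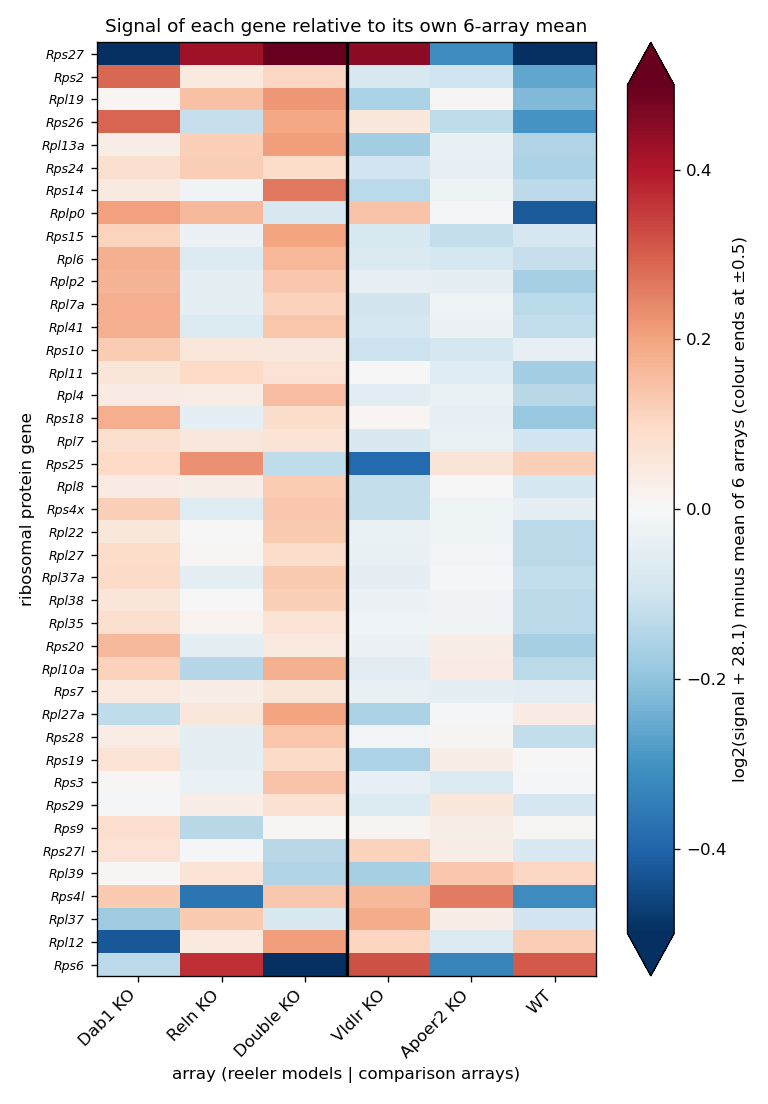
Signal of the kept members on each of the 6 arrays, shown as colour by log2 deviation from the member's mean over the arrays, with reeler models left of comparison arrays. The members with higher signal are mostly above their mean on the Dab1 and double knockout arrays and mostly below it on the WT array, and Rps27 and Rps6 depart furthest.

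Among small subunit members, Rps2, which lies where mRNA enters the ribosome, had the lowest p. It read 6769, 5722 and 5949.7 in the Dab1, Reln and double knockouts, against 5238, 5158 and 4622 in the Vldlr knockout, Apoer2 knockout and WT. The lowest reeler model was above the highest comparison array, with the Dab1 knockout highest and WT lowest. The means were 6147 ± 551 in reeler models and 5006 ± 335 on comparison arrays (SD, n = 3 each), and the log2 difference was 0.29 (SE 0.083, limma adjusted p = 0.303).

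Rps24, a small subunit protein needed to process the precursor of the small subunit's RNA, read 4448, 4586 and 4488 in the Dab1, Reln and double knockouts, against 3929.6, 4084 and 3766 in the Vldlr knockout, Apoer2 knockout and WT. The 3 reeler models lay close together and all above the comparison arrays. The log2 difference was 0.20 (SE 0.063, limma adjusted p = 0.352). Its 3 other probe sets above the signal filter gave 0.07, 0.10 and 0.11.

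Rps26, which contacts mRNA near the ribosome's exit site, read 2983, 2239 and 2785 in the Dab1, Reln and double knockouts, against 2521, 2222 and 1975 in the Vldlr knockout, Apoer2 knockout and WT. Here the groups overlapped, because the Reln knockout fell below the Vldlr knockout. The log2 difference was 0.25 (SE 0.13, limma adjusted p = 0.507).

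Among large subunit members, Rpl19, which forms part of a bridge between the subunits, read 4286, 4716 and 4961 in the Dab1, Reln and double knockouts, against 3818, 4286 and 3654 in the Vldlr knockout, Apoer2 knockout and WT. The groups touched: 4286.4 in the Dab1 knockout was barely above 4285.6 in the Apoer2 knockout. The log2 difference was 0.25 (SE 0.085, limma adjusted p = 0.376).

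Rpl13a, which in human cells also leaves the ribosome to silence inflammatory mRNAs, read 4856, 5161 and 5500.4 in the Dab1, Reln and double knockouts, against 4211, 4622 and 4275 in the Vldlr knockout, Apoer2 knockout and WT. All reeler models were above all comparison arrays, with a log2 difference of 0.24 (SE 0.072, limma adjusted p = 0.338). Its 4 probe sets disagreed in sign. The others gave 0.10, -0.14 and -0.45, and the last of these read 433.8, 318.8 and 345.3 in the Dab1, Reln and double knockouts against 474.7, 461.7 and 586.2 in the Vldlr knockout, Apoer2 knockout and WT. The direction of Rpl13a is therefore uncertain.

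The ribosomal stalk recruits the elongation factors and consists of Rplp0, Rplp1 and Rplp2, of which the array names Rplp0 and Rplp2. Rplp0 read 3432, 3329 and 2810.4 in the Dab1, Reln and double knockouts, against 3289.5, 2956 and 2213 in the Vldlr knockout, Apoer2 knockout and WT. Rplp2 read 4652, 3988 and 4538 in the Dab1, Reln and double knockouts, against 4011, 3985 and 3681 in the Vldlr knockout, Apoer2 knockout and WT. WT was the lowest array for both, and the groups overlapped for both. Their log2 differences were 0.19 and 0.17 (limma adjusted p = 0.636 and 0.473).

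Members of both subunits lay mostly above 0. The median log2 difference was 0.12 over 20 kept small subunit members, of which 6 had all reeler models above all comparison arrays, and 0.13 over 21 kept large subunit members, of which 11 did, against 9.08% of all genes and 23.7% of those with a mean signal of 2000 or more. The difference between the subunits was not tested. The 17 such members, named after their values were seen, were Rps2, Rps7, Rps10, Rps14, Rps15 and Rps24 of the small subunit and Rpl4, Rpl6, Rpl7, Rpl8, Rpl11, Rpl13a, Rpl19, Rpl22, Rpl27, Rpl35 and Rpl38 of the large subunit. Their log2 differences ran between 0.093 for Rps7 and 0.29 for Rps2. Rps7 illustrates how small a difference can separate the arrays, at 5863, 5778 and 5914 in the Dab1, Reln and double knockouts against 5514, 5498 and 5446 in the Vldlr knockout, Apoer2 knockout and WT. The probe sets of Rps10 disagreed in sign. Those above the filter that were not used gave -0.41, -0.038, 0.070 and 0.11.

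Only 7 kept members were below 0, and in none of them did the groups separate. Rps6, a small subunit protein that the S6 kinases phosphorylate downstream of mTOR, had the lowest log2 difference, -0.19 (SE 0.25), followed by Rpl12 at -0.11 and Rpl37 at -0.083. Rps4l, an autosomal relative of the X-linked Rps4x, was at -0.067. Rpl39, which lines the exit tunnel, was at -0.049, Rps27l, a paralog of Rps27, at -0.047 and Rps9 at -0.032. All had limma adjusted p-values of 0.795 to 0.914. Rps6, Rpl12, Rps4l, Rpl39 and Rps27l changed sign when 1 array was left out. Of the 7, only Rps9 had a mean signal above 2000.

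**Figure D2:**
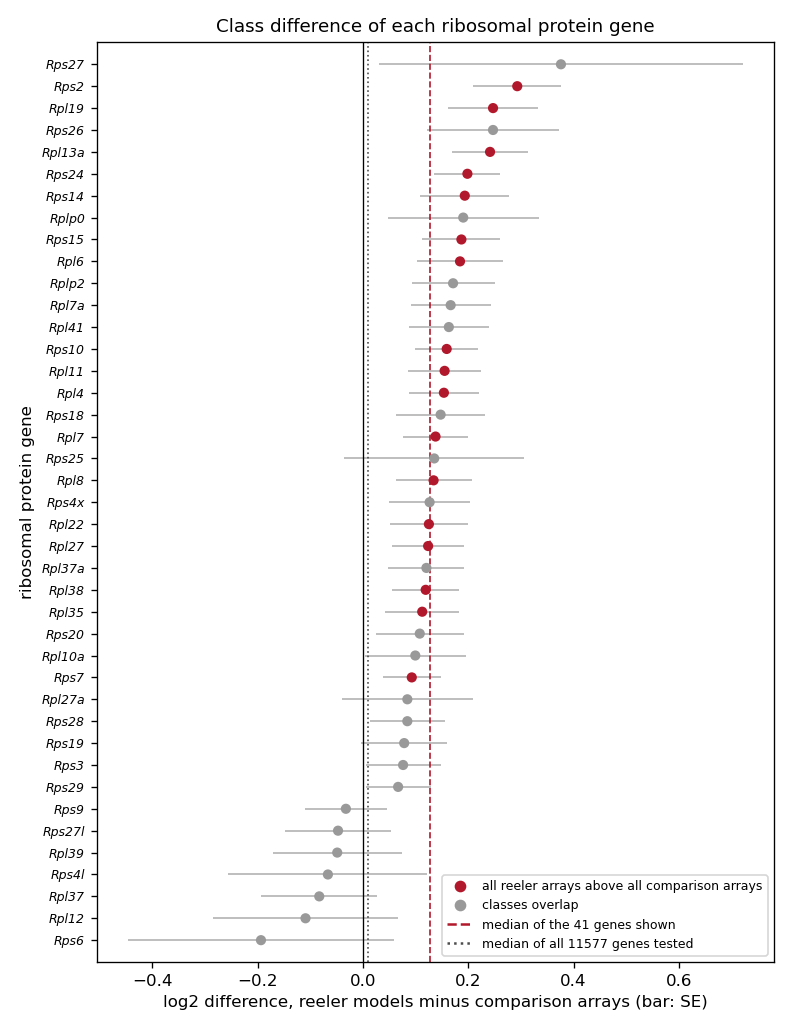
Log2 difference, reeler models minus comparison arrays, of each kept member with its standard error, ordered by size and coloured by whether the 2 groups of 3 arrays overlap. Separated members lie between 0.093 and 0.29, and Rps27 has the highest value with the widest error.

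The shift went with signal. At a mean signal of 2000 or more, a level chosen after the data had been seen, 31 members had a median log2 difference of 0.15, with 30 above 0 and 17 with every reeler model above every comparison array. The 770 other genes at that level also lay above 0, with a median of 0.087, 76.5% above 0 and 22.5% separated in the same direction. Over all 801 genes at that level, members included, 23.7% were separated. The 10 kept members below that level had a median of -0.048, with 4 above 0 and 0 separated. Other genes of high signal thus also lay above the median of all genes, and the difference between the 2 sets, 0.15 for members against 0.087 for the others, was not tested.

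**Figure D3:**
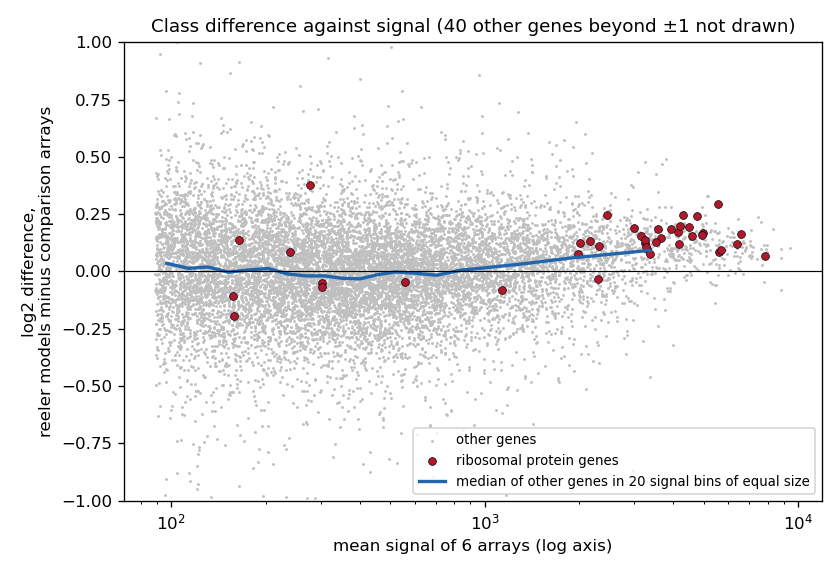
Log2 difference, reeler models minus comparison arrays, against mean signal on a log axis for all genes tested (grey), with kept members marked and the median of the other genes in 20 bins of equal gene number as a line. The line stays between -0.032 and 0.036 except in the 2 bins of highest signal, where it is 0.058 and 0.092, and 31 of the 41 kept members have a mean signal of 2000 or more.

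The same shape stood in the values by array. The median deviation of the 31 members from their own mean was 0.084 in the Dab1 knockout, -0.00032 in the Reln knockout and 0.13 in the double knockout, against -0.056 in the Vldlr knockout, -0.027 in the Apoer2 knockout and -0.13 in WT. For the 770 other genes it was 0.051 in the Dab1 knockout, -0.016 in the Reln knockout and 0.088 in the double knockout, against -0.030 in the Vldlr knockout, -0.012 in the Apoer2 knockout and -0.077 in WT. Both sets were highest in the double knockout, then the Dab1 knockout, and lowest in WT. The class means for the members were 0.070 ± 0.064 in reeler models and -0.072 ± 0.054 on comparison arrays (SD, n = 3 each).

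The double knockout array held the highest value for 15 of the 31 members, the Dab1 knockout for 14 and the Reln knockout for 2. WT held the lowest value for 22, the Vldlr knockout for 5, and the Apoer2 and Reln knockouts for 2 each. The 41 kept members made up 0.939 ± 0.030% of the summed signal in reeler models and 0.863 ± 0.027% on comparison arrays (SD, n = 3 each). The 99th percentile of signal differed in the same direction, at 4012 ± 147 in reeler models and 3748 ± 112 on comparison arrays, while array medians ranged over 86.5 to 92.3. After quantile normalization, which gives every array the same distribution, the members' median log2 difference was 0.050, with 30 of 41 above 0, against 53.9% of all genes, and 6 separated in the higher direction, against 9.42%. Without the Reln knockout array 29 of 41 members were separated in the higher direction, against 16% of all genes and 47.1% of those at 2000 or more. With WT as the sole comparison array 28 were, against 29% and 53.7%. Fewer arrays need to be ordered in these counts, so the shares of all genes are higher too. Without the Apoer2 knockout array, which stood apart in Xist and Gh, the members' median was 0.15, with 36 of 41 above 0, against 51.8% of all genes, and 21 separated, against 13.5% and 33.5%.

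**Figure D4:**
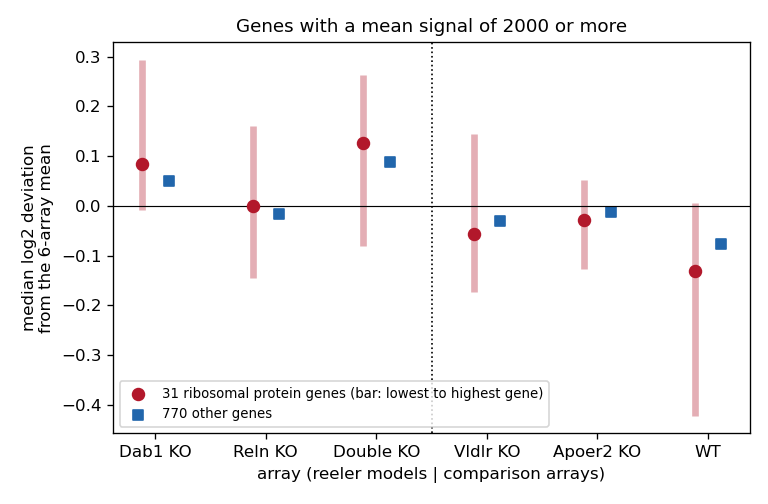
Median log2 deviation from the gene's own mean on each array, for the members with a mean signal of 2000 or more and for the 770 other genes at that level, with reeler models left of comparison arrays and bars from the lowest to the highest member. Both sets are highest on the double knockout array and lowest on the WT array. The members' medians lie further out than those of the other genes, except on the Reln knockout array.

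The members of high signal varied little and moved together over the 6 arrays. Their coefficient of variation over the arrays had a median of 7.35%, against 8.09% for other genes at that level. It ran between 3.64% for Rps7 and 15.5% for Rps26. As a description over 6 arrays that share one scaling each, the median Pearson's r between 2 such members was 0.77, with 97.4% of pairs above 0. For the 770 other genes it was 0.28, with 67.8% of pairs above 0. The 10 kept members of lower signal did not share this pattern, with a median r of -0.081 and 44.4% of pairs above 0.

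Each mutant was also set beside WT, with no test since each genotype had 1 array. All 5 differences share the WT array, which was the lowest for most members. The members' median log2 difference was 0.061 in the Vldlr knockout, 0.11 in the Apoer2 knockout, 0.19 in the Dab1 knockout, 0.11 in the Reln knockout and 0.25 in the double knockout, against medians over all genes of -0.0046 to 0.018. The 770 other genes of high signal had medians of 0.051, 0.063, 0.12, 0.061 and 0.17 in the same order of mutants. At 1.25-fold or more, 8 members were higher in the double knockout than in WT, against 11.5% of all genes, and 1 was lower, against 11.4%. In the Dab1 knockout 7 were higher, against 11.7%, and 2 lower, against 13.6%. In the Reln knockout 3 were higher, against 15%, and 0 lower, against 17.1%. In the Vldlr knockout 4 were higher, against 8.95%, and 1 lower, against 11.5%, and in the Apoer2 knockout 3 were higher, against 5.87%, and 1 lower, against 6.79%. The counts of higher members were between 3 and 8 of 41, so most members stayed within 1.25-fold of WT in every mutant.

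A few members ranged further than the rest. Rps27, a zinc-binding small subunit protein, had the widest range, 1.35 on the log2 scale. It read 173.2, 355.9 and 421.7 in the Dab1, Reln and double knockouts, against 362.9, 202.9 and 148.0 in the Vldlr knockout, Apoer2 knockout and WT. The Reln, double and Vldlr knockouts were high and the other 3 arrays low, so the pattern did not follow the reeler models. Against WT, Rps27 was 2.55-fold higher in the double knockout, 2.18-fold in the Reln knockout, 2.22-fold in the Vldlr knockout, 1.31-fold in the Apoer2 knockout and 1.14-fold in the Dab1 knockout. Its log2 difference between the classes was 0.38 (SE 0.35, limma adjusted p = 0.694), and ran between 0.12 without WT and 0.72 without the Dab1 knockout when 1 array was left out. It has 1 probe set that names it alone, so no further probe set was read for this pattern. Whether any of the 110 probe sets with paired symbols names Rps27 was not examined. That probe set had a mean signal of 277.4, against 2012 to 7879 for the 31 members of high signal. Whether so dim a probe set reports the main transcript of Rps27 was not tested. Its paralog Rps27l ranged only between 501.1 and 603.7.

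Rplp0 and Rps26 also lay far from WT. Rplp0 was 1.54-fold higher in the Dab1 knockout than in WT, 1.50-fold in the Reln knockout, 1.48-fold in the Vldlr knockout, 1.33-fold in the Apoer2 knockout and 1.27-fold in the double knockout. The WT array, at 2213, lay apart from the others, at 2810.4 to 3432. Rps26 was 1.50-fold higher than in WT in the Dab1 knockout, 1.40-fold in the double knockout, 1.27-fold in the Vldlr knockout, 1.13-fold in the Reln knockout and 1.12-fold in the Apoer2 knockout. Rps4l read 328.9, 225.5 and 329.7 in the Dab1, Reln and double knockouts, against 336.7, 360.9 and 234.1 in the Vldlr knockout, Apoer2 knockout and WT, so it was low on the Reln and WT arrays. Rpl12, part of the base of the stalk, read 109.3, 162.3 and 184.9 in the Dab1, Reln and double knockouts, against 170.3, 147.5 and 172.6 in the Vldlr knockout, Apoer2 knockout and WT, and was lowest in the Dab1 knockout, 1.46-fold below WT. The probe sets of Rps4l and Rpl12 were dim as well, with mean signals of 302.6 and 157.8.

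Loss of Apoer2 was examined by setting the Apoer2 and double knockout arrays against the other 4, because Rps6 shares chromosome 4 with Lrp8. These arrays also enter the class comparison, so the comparisons are not independent. By limma, 0 of 41 members were past an adjusted p of 0.05, against 0.0173% of all genes. The members' median log2 difference was 0.061, against 0.014 over all genes, and 34 were above 0, against 54.5%. That median was 0.0040 without the double knockout, 0.14 without the Apoer2 knockout and -0.00064 after quantile normalization. At an unadjusted limma p under 0.05, 0 members were higher, against 1.04%, and 1 was lower, against 1.05%. This was Rps6.

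Rps6 read 116.1 and 98.3 on the Apoer2 and double knockout arrays, against 137.8, 205.6, 198.3 and 196.5 on the Dab1 knockout, Reln knockout, Vldlr knockout and WT arrays. Both arrays that lack Apoer2 were below all others, but the Dab1 knockout array was nearer to them than to the remaining 3. The log2 difference was -0.64 (SE 0.18, limma adjusted p = 0.9998), 1.56-fold lower on the arrays that lack Apoer2. Over 14 alternatives the difference ran between -0.77 and -0.47, and its lowest limma adjusted p was 0.668. Rps6 was the single member with both arrays below the other 4, against 3.88% of all genes. The probe set used had a mean signal of 158.8, far below the 2012 or more of the members of high signal. Whether it reports the main transcript was not tested. A further Rps6 probe set, below the signal filter, read 39.6 and 35.1 on the Apoer2 and double knockout arrays, against 21.8, 103.9, 85.1 and 38.6 on the Dab1 knockout, Reln knockout, Vldlr knockout and WT arrays, so its groups overlapped. Most of its values lie near the 28.4 to 39.6 that the highest bacterial control probe set of each array read.

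In RefSeq's gene order 315 genes lie between Rps6 and Lrp8 on chromosome 4, 137 of them protein-coding. Dab1, itself a targeted gene, lies between them as well. Rps6 read 116.1, 98.3 and 137.8 on the Apoer2, double and Dab1 knockout arrays, against 196.5 to 205.6 on the others. Of the 52 genes tested in the interval up to Lrp8, 0 had both arrays that lack Apoer2 below the other 4, against 3.88% of all genes. In 5, or 9.62%, both were above, against 5.06%. The part of chromosome position in the Rps6 values was not tested. The other members on chromosome 4 did not separate in the lower direction. Rps20 read 3346 and 3382 on the Apoer2 and double knockout arrays and 2910.5 to 3663 on the other 4. Rpl11, which with the 5S ribosomal RNA binds Mdm2 when ribosome assembly fails, read 3019.6 and 3310.4 on the Apoer2 and double knockout arrays and 2799 to 3378 on the other 4. Rpl22, an RNA-binding protein of the large subunit needed for T cell development in mice, read 1979.6 and 2204 on those arrays and 1828 to 2088 on the others. All 3 overlapped between the groups. In the other direction, Rps29 alone had both arrays above the other 4, at 8165 and 8301 on the Apoer2 and double knockout arrays, against 7427 to 8053 on the others, a log2 difference of 0.097.

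Loss of Vldlr was examined in the same way, with the Vldlr and double knockout arrays against the other 4. No member lies on chromosome 19, which holds Vldlr. By limma, 0 of 41 members were past an adjusted p of 0.05, against 0.00864% of all genes, and the lowest adjusted p was 0.9999. The median log2 difference was 0.038, against 0.012 over all genes, and 33 members were above 0, against 53.5%. That median turned with single arrays: it was -0.027 without the double knockout, -0.000069 without WT and 0.13 without the Vldlr knockout. At an unadjusted limma p under 0.05, 1 member was higher, against 0.976% of all genes, and 1 was lower, against 1.42%. These were Rps27 and Rps25.

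Rps27 read 362.9 and 421.7 on the Vldlr and double knockout arrays, against 173.2, 355.9, 202.9 and 148.0 on the Dab1 knockout, Reln knockout, Apoer2 knockout and WT arrays. It was the single member with both arrays above the other 4, against 4.93% of all genes, and the Reln knockout array nearly reached them. The log2 difference was 0.82 (SE 0.28, limma adjusted p = 0.9999). Rps25, a small subunit protein that viral internal ribosome entry sites require, read 117.4 and 146.3 on the Vldlr and double knockout arrays, against 175.8, 194.9, 170.9 and 178.6 on the Dab1 knockout, Reln knockout, Apoer2 knockout and WT arrays. The groups did not overlap, and the log2 difference was -0.38 (SE 0.14, limma adjusted p = 0.9999). Rpl39 separated the same way, at 265.3 and 268.5 on the Vldlr and double knockout arrays against 302.5 to 333.0 on the others, a log2 difference of -0.24 (SE 0.11). These 2 members with both arrays below the others stand against 4.64% of all genes. Their mean signals, 164.0 for Rps25 and 302.0 for Rpl39, also lay far below those of the members of high signal.

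**Figure D5:**
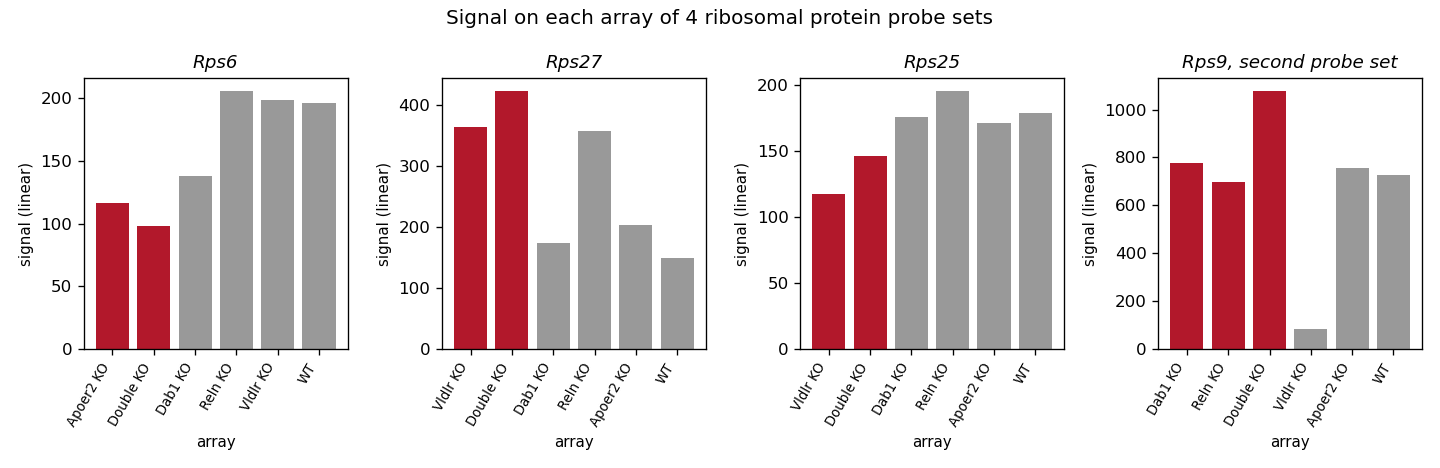
Signal on each of the 6 arrays for Rps6, Rps27, Rps25 and a second probe set of Rps9. Red bars mark the arrays that lack Apoer2 for Rps6, the arrays that lack Vldlr for Rps27 and Rps25, and the reeler models for Rps9, where 1 comparison array, the Vldlr knockout at 85.0, lies apart from the other 5 at 697.4 to 1077.

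Probe sets that were not chosen give further readings of the same genes in the same RNA, so they are not independent of the chosen ones. Above the signal filter, 38 member probe sets, from 19 genes, were not used. In the class comparison 32 of them had a log2 difference above 0, against 52.2% of all genes. Of the 54 member probe sets with a mean signal of 2000 or more, 53 were above 0. They come from 31 genes and include the chosen probe sets. With each gene counted once, 30 of 31 members were above 0, against 77.3% of the 801 genes at that level. Of the 25 member probe sets between the filter and that level, 13 were above 0. Many probe sets of these genes end in _x_at, which marks probes that can bind related sequences, and ribosomal protein genes have many processed pseudogenes. Their median log2 difference was 0.11 over 37 such probe sets, close to 0.13 over 25 ending in _a_at and 0.13 over 14 ending in _at.

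Single probe sets could go their own way. A second probe set of Rps9 read 775.7, 697.4 and 1077 in the Dab1, Reln and double knockouts, against 85.0, 755.2 and 727.5 in the Vldlr knockout, Apoer2 knockout and WT. It was low on 1 array alone, and the log2 difference of 1.09 rests on that array. The probe set used for Rps9 read 2320.5 there, within its range of 2086 to 2438 over the 6 arrays. A second probe set of Rpl37a read 295.9, 273.1 and 361.3 in the Dab1, Reln and double knockouts, against 133.4, 165.2 and 376.9 in the Vldlr knockout, Apoer2 knockout and WT, whereas the one used for the gene stayed between 3828 and 4572.

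The 4 genes below the filter gave no usable level from the 1 probe set that names each alone. Probe sets that pair a ribosomal protein symbol with another gene were not read for them. Rps16 read 1.0 to 1.9 and Rpl14 33.7 to 60.1 over the 6 arrays, although both are core ribosomal proteins. Rpl3l, a muscle form of Rpl3, read 7.4 to 36.5, and Rpl39l, a testis form of Rpl39, 5.8 to 46.5. The highest of 27 control probe sets for bacterial genes, absent from mouse RNA, read 28.4 to 39.6 per array, so these values lie at or near background.

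The members' class difference was also read by promoter feature. The median log2 difference was 0.15 over 20 kept members with a pyrimidine run near the start and 0.12 over 15 without. It was 0.16 over 11 with CTTTC there and 0.12 over 24 without. For CCGGAAG or its reverse complement it was 0.14 over 18 with and 0.13 over 17 without. No test was made of these medians.

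Lists of related genes place the members in the machinery of translation, each described in the class comparison by counts beside the background of 52.2% of genes above 0. No gene of these lists was past an adjusted p of 0.05 by limma. Ribosomal protein genes, and genes named for likeness to them, that the symbol rule leaves out gave a mixed picture. Fau, whose product carries the small subunit protein S30, and Rpl22l1 were at 0.16 and 0.14, with mean signals of 2868 and 2022. Rpl7l1, Rsl24d1 and Rsl1d1 resemble ribosomal proteins by name and were dimmer, with mean signals of 312.1 to 551.1. They were at -0.094, -0.074 and 0.28. Rps3a1, which the rule misses and which was added after its values were seen, read 5033, 4968 and 5483 in the Dab1, Reln and double knockouts, against 4473, 4719 and 4629 in the Vldlr knockout, Apoer2 knockout and WT, a log2 difference of 0.16.

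The 76 mitochondrial ribosomal protein genes, which build the separate ribosome inside mitochondria, were split evenly, with 38 above and 38 below 0 and a median log2 difference of 0.0044. None had a mean signal of 2000 or more. Their extremes were Mrpl41 at 0.60 and Mrps21 at -0.36. Initiation factors, which bring the small subunit to the mRNA, had a median of 0.11 over 34 genes, with 27 above 0, and Eif2b3 at 0.48 and Eif4e3 at -0.26 as extremes. Elongation factors had a median of 0.060 over 12 genes, with 9 above 0. Their extremes were Eef1d, a subunit of the exchange factor for elongation factor 1, at 0.28 and the mitochondrial Tufm at -0.48. At a mean signal of 2000 or more, 10 of 10 initiation factors and 4 of 4 elongation factors were above 0, against 77.3% of the 801 genes there.

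Other genes known for a 5′ terminal pyrimidine tract had a median log2 difference of 0.088 over 16 genes, with 15 above 0. The 8 of them with a mean signal of 2000 or more had a median of 0.11, against 0.087 for the 770 genes at that level that are not members. Eef1d at 0.28 and Eif3f at 0.24 were the highest and Nap1l1 at -0.022 the lowest. Genes of ribosome biogenesis had a median of 0.012 over 43, with 25 above 0, between Eif6, which keeps the subunits apart, at 0.32 and Nat10 at -0.40. The mTOR and S6 kinase list had a median of -0.012 over 17, with 8 above 0, between Rheb, the activator of mTOR, at 0.18 and Rps6ka3 at -0.61. Host genes of small nucleolar RNAs had a median of 0.071 over 11, with 8 above 0, between Gas5 at 0.27 and Snhg14 at -1.09, which was low on the Dab1 knockout array. The members mutated in human Diamond-Blackfan anaemia had a median of 0.12 over 11, with 11 above 0 and 6 separated in the higher direction, against 9.08% of all genes. Of these 11 members 9 had a mean signal of 2000 or more, where 23.7% of genes were separated. Their range was 0.067 for Rps29 to 0.38 for Rps27.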

How the data were processed

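Per the labels' protocols, RNA-Stat60 was used to extract total RNA, from which the 3' IVT PLUS kit gave biotin-labelled cRNA. The authors deposited linear signal intensities of 45101 probe sets, and the submitters' processing notes name MAS5 and Affymetrix Expression Console, whose versions were not given in the sources used here. Names came from the platform annotation (34958 probe sets name 1 gene, 932 several, 9211 are unnamed here), and all 45 members matched RefSeq by gene ID with 0 symbol changes. As a measure of RNA quality, 5' over 3' control signal gave ratios of 1.37 to 1.43 (Gapdh) and 0.688 to 0.757 (Actb), with class means of 1.39 in reeler models and 1.41 on comparison arrays for Gapdh, and 0.712 in reeler models and 0.736 on comparison arrays for Actb. The number of arrays limits the precision.

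The log2 scale used was log2(signal + 28.1), the pseudocount being the lower quartile of all values, and folds on it understate changes of dim genes. Probe sets with a mean signal under 89.0 were left out, and 11577 genes were fitted in R 4.3.3 with limma 3.58.1, two-sided, using a trended prior and Benjamini-Hochberg adjustment over all of them. The fit was tested on simulated data that gave each gene independent noise. That test does not cover shifts that the genes of an array share. With 1 array per genotype, p-values reflect the spread among these arrays alone.

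The members, gene lists and comparisons were chosen with earlier results of these data known. Named members follow a rule: the highest and lowest in each comparison, those on chromosome 4, the stalk, paralog pairs, the widest ranges, those below the filter, and the extremes of each list. Members named beyond it, such as those that separate the groups, Rps14, Rps7, Rps29 and Rps20 among them, and the second probe sets shown were chosen once their values had been seen. The alternatives tried were a pseudocount of 1 or 89.4, no filter or a filter at 297.5 or 2000, quantile normalization, other choices of probe set, no trend, other comparison arrays and leaving out each array in turn. The filter at 2000 was chosen after seeing the data.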

Additional observations from a re-analysis of the deposited data

How the results depend on the processing

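Members past an adjusted p of 0.05 by limma numbered 0 in each of the 3 comparisons under every alternative run. At an unadjusted p under 0.05 the class comparison had 8 members higher (5.26% of all genes), 2 after quantile normalization (5.29%) and 18 without the Reln knockout (5.55%), with 0 lower in each. All of these members had a mean signal of 2000 or more. The shares of genes higher at that level were 15.1%, 4% and 25.2% in the same order. Over all genes 15 were past the adjusted threshold in the class comparison (0 to 23 over the alternatives), 2 in the Apoer2 loss comparison (0 to 4) and 1 in the Vldlr loss comparison (0 to 4). No paired analysis was possible because each genotype has 1 array and the labels give no replicate numbers that the groups share. In the class comparison the members' median log2 difference was 0.13, 0.050 after quantile normalization, 0.19 with WT as the sole comparison array, and 0.099 to 0.16 when each array was left out in turn. Members with every reeler model above every comparison array numbered 17 (9.08% of all genes), 6 after quantile normalization (9.42%), 28 with WT alone (29%), and 18 (12.6% without WT, 16.1% without the Dab1 and 14% without the double knockout) to 29 (16%, without the Reln knockout) when each array was left out. In the Apoer2 loss comparison the median was 0.061, -0.00064 after quantile normalization, 0.14 in the receptor cross alone, and 0.0040 (without the double knockout) to 0.14 (without the Apoer2 knockout). In the Vldlr loss comparison it was 0.038, 0.10 in the receptor cross alone, and -0.027 (without the double knockout) to 0.13 (without the Vldlr knockout), with -0.000069 without WT. Against WT, quantile normalization gave medians of 0.038 in the Apoer2, 0.074 in the Dab1 and 0.076 in the double knockout, and the mean of the comparison arrays in place of WT gave 0.042 in the Apoer2 and 0.18 in the double knockout. A total of 480 further values were taken as unchanged. They kept their direction and side of the threshold, moved by less than the spread between arrays or, for counts, lay near the main count.

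Single members changed sign in the class comparison: Rpl13a with the mean of all its probe sets (-0.060), and, with each array left out in turn, Rpl12 (-0.24 to 0.075, positive without the Dab1 knockout), Rps6 (-0.42 to 0.019, positive without the double knockout), Rpl39 (-0.14 to 0.014, positive without the Apoer2 or double knockout), Rps4l (-0.24 to 0.098, positive without the Apoer2 or Reln knockout) and Rps27l (-0.098 to 0.011, positive without the double knockout). With WT alone Rps4l (0.28), Rps27l (0.053) and Rpl37 (0.055) were positive. In the Apoer2 loss comparison they were Rps25 (-0.18 to 0.049, positive without the Reln or double knockout), Rps27 (-0.23 to 0.74, negative without the double knockout) and Rps27l (-0.17 to 0.0058, positive without the double knockout) with each array left out, and Rps25 (0.10) and Rplp0 (0.094) in the cross alone. Rps27 in the class comparison kept its sign but ran between 0.12 and 0.72 with each array left out. The cause was not tested. Signals near those of the bacterial controls have no order.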
